A study of Mus musculus with 6 samples.

Results

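Integrins are the adhesion receptors that let a T cell hold on to vessels, matrix and other cells, and 9 of their genes are described here: Itgae, Itgb7, Itga4, Itga1, Itgb1, Itgav, Itgal, Itgb2 and Itga6. Their members were taken as every probe set (a group of short oligonucleotides on the array that report a transcript together) whose annotation names only that gene. This gave 26 of the 45037 probe sets that are not array controls, for 9 of 18193 named genes. CD8 T cells came from MCA-205 tumours, a transplantable mouse fibrosarcoma, in male C57BL/6 Eomes-GFP mice, in which GFP reports Eomes. Eomes belongs to the T-box transcription factors and acts in effector and memory T cells. All mice had both antibodies of the therapy: aOX40, against a costimulatory receptor, at 250 ug on days 12 and 16, and aCTLA-4, against an inhibitory receptor, at 200 ug on days 12, 14 and 16. The sort was done on day 19. Cells with GFP are the Eomes+ group and cells without it the Eomes- group, with 3 arrays each, numbered as replicates 1, 2 and 3. GFP stands in for Eomes in this sort, and no untreated mice were analysed here. The submitters name 3 independent experiments, but the labels give no age, tie no array to an animal or experiment and do not say whether animals were pooled. What the p-values weigh is thus the spread of these samples alone, which may be technical.

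An integrin is a pair of 1 alpha and 1 beta chain. The alpha chain encoded by Itgae, known as CD103, pairs only with the beta7 chain (Itgb7), binds E-cadherin of epithelial cells and is a standard mark of tissue-resident CD8 T cells, in which TGF-beta signalling and the transcription factor RUNX3 are known to induce it. The alpha4 chain (Itga4) pairs with beta7 to bind MAdCAM-1 in gut vessels, or with beta1 (Itgb1) to bind VCAM-1 and fibronectin. Itga1 encodes CD49a, which with beta1 binds collagen, Itga6 a laminin receptor chain and Itgav a chain that also releases TGF-beta from its latent form. Itgal and Itgb2 encode LFA-1, which binds the ICAM proteins.

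Values are log2 signals, so that a difference of 1 is a change of 2-fold. The arrays had medians between 6.35 and 6.42. Eomes was higher on every Eomes+ array than on any Eomes- array for both of its probe sets (log2 difference 3.15, SE 0.63, for the brighter). Cd3e and Cd8a, which define CD8 T cells, lay between 11.78 and 13.55 on all arrays. The mean of 12 T cell markers (of 14 listed) was 12.04, 11.86 and 10.82 on Eomes+ arrays 1, 2 and 3 and, in Eomes-, 12.23, 12.20 and 10.94. In contrast, 21 tumour and fibroblast markers (of 24) averaged 9.18, 11.05 and 11.88 against 9.01, 10.18 and 12.04, and 19 macrophage markers (of 21) 8.94, 10.26 and 11.06 against 8.58, 9.58 and 11.10. Both arrays numbered 3 thus carried the lowest T cell and the highest tumour and macrophage signal, and results are given with and without them where this matters. Fewer cells of a type and less RNA per cell cannot be told apart in such sorted samples.

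Itgae was lower in Eomes+ cells, Itga4 was higher by all its probe sets, and the brightest probe sets of the beta chains that pair with them differed by at most 0.33 log2 with all 6 arrays. Of the 26 probe sets, 25 lay above the filter level (the 40th percentile of the array, on at least 3 of 6 arrays) and were tested among 27766 probe sets. Limma called 0 of the 25 at an adjusted p under 0.05, and 0.0% of all tested probe sets. At an unadjusted p under 0.05 there were 6 of 25, against 3.37% of all tested probe sets. Of these, 3 were higher in Eomes+ cells (1.11% of all tested) and 3 lower (2.27%). That count was 3 without Eomes+ replicate 2, 3 without both arrays numbered 2 and 12 without both arrays numbered 3. The mean was lower in Eomes+ cells for 16 of the 25 (53.4% of all tested) and higher for 9 (46.6%). Their median difference was -0.17 log2 against -0.02 over all tested probe sets. Every Eomes+ array lay below every Eomes- array for 4 (5.14% of all tested), and above for 4 (2.92%). Probe sets of 1 gene report the same RNA and are not separate observations.

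**Figure D1:**
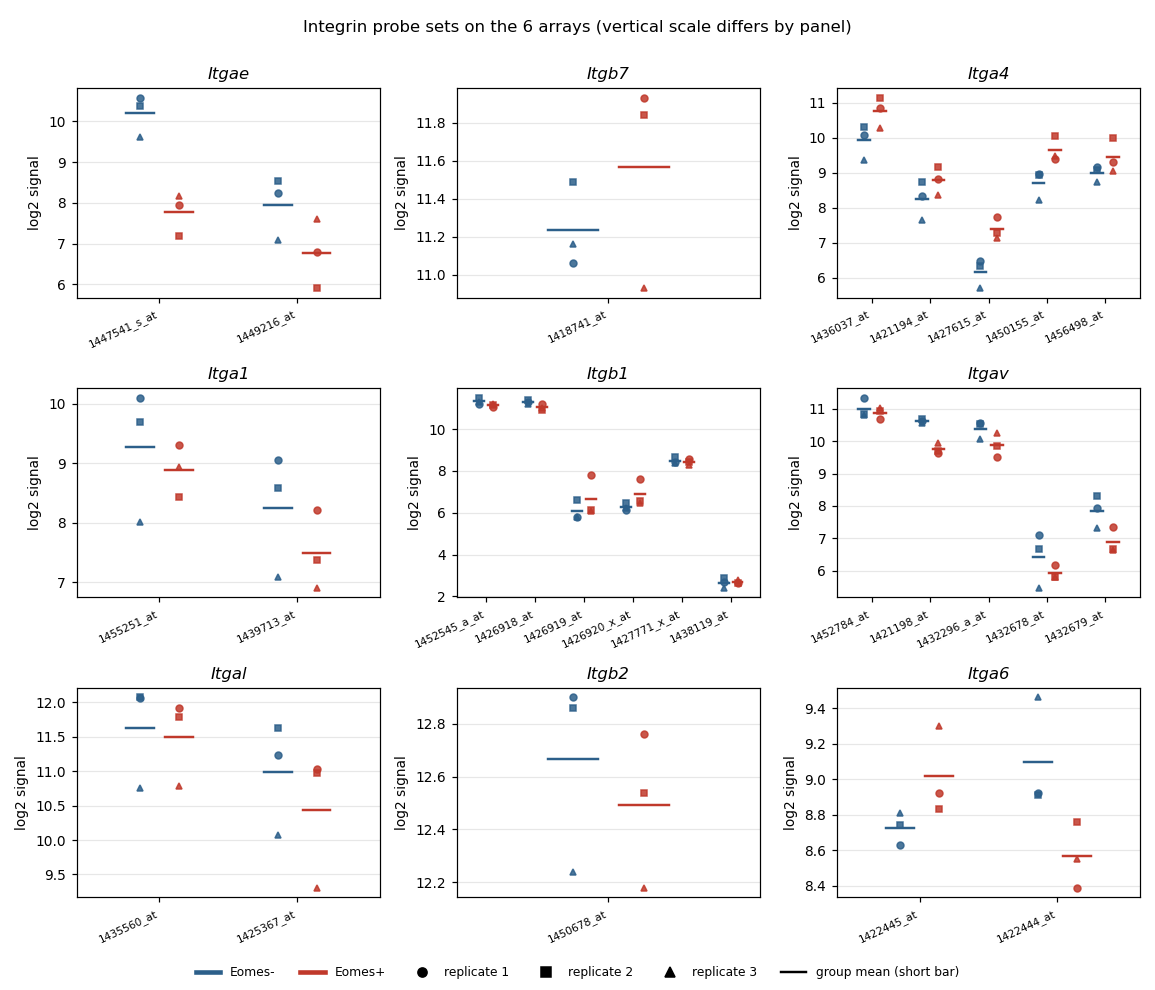
Log2 signal (vertical axis) of all 26 probe sets (horizontal axis) in 9 panels, 1 per gene, with Eomes- arrays in blue, Eomes+ arrays in red, a marker shape for each replicate number and a short bar for the group mean. The brighter Itgae probe set shows separate groups, at 7.19 to 8.16 in Eomes+ and 9.63 to 10.58 in Eomes-, while the group means of the brightest Itgb1, Itgal, Itgb2 and Itgav probe sets lie close together.

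The brighter Itgae probe set, 1447541_s_at, read 7.96, 7.19 and 8.16 on Eomes+ arrays 1, 2 and 3 and, in Eomes-, 10.58, 10.38 and 9.63. The groups were separate, and the highest Eomes+ array lay well below the lowest Eomes- array. The means were 7.77 ± 0.52 and 10.19 ± 0.50 (SD, n = 3 each), a signal 5.37-fold lower in Eomes+ cells. This difference of -2.42 log2 (SE 0.38, limma, 95% interval -3.32 to -1.53) ranked 4 from the lowest among the 27766 probe sets, with an adjusted p of 1.00 and an unadjusted p of 0.000405. It passed correction in 1 of the other fits, that with array weights (-2.95 log2, adjusted p = 0.0352). That fit put 6270 probe sets at an unadjusted p under 0.05, against 936 without weights. With arrays centred on T cell markers the difference was -2.21 log2 (SE 0.59, limma unadjusted p = 0.00406). Leaving out single arrays, or both arrays of a number, gave -2.90 to -2.04 log2, and the tumour and macrophage marker level as a covariate gave -2.36. Its suffix, _s, marks a probe set that may match more than 1 transcript.

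The other Itgae probe set, 1449216_at, was dimmer and gave a smaller difference. It read 6.80, 5.91 and 7.61 on Eomes+ arrays and 8.25, 8.55 and 7.08 on Eomes- arrays. Here the groups overlapped, because Eomes+ array 3 lay above Eomes- array 3. The difference was -1.19 log2 (SE 0.56, 95% interval -2.52 to 0.14), -2.05 without both arrays numbered 3 and -0.46 without both arrays numbered 2. Both probe sets were above the filter level on all 6 arrays and had a lower mean in Eomes+ cells.

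Itgb7, the only partner of CD103, had a slightly higher mean in Eomes+ cells. Its probe set read 11.93, 11.84 and 10.93 on Eomes+ arrays and 11.06, 11.49 and 11.16 on Eomes- arrays, so the groups overlapped and the lowest value was an Eomes+ array. The difference was 0.33 log2 (SE 0.29, 95% interval -0.35 to 1.02), which leaves room for a change of either sign but not for one of the size seen for Itgae. It depended on single arrays: it was 0.65 without Eomes+ replicate 3 (unadjusted p = 0.0127, limma), 0.61 (SE 0.19) without both arrays numbered 3 and 0.06 without both arrays numbered 1. Within an array, Itgae minus Itgb7 was -3.97, -4.65 and -2.77 in Eomes+ cells and -0.47, -1.11 and -1.54 in Eomes- cells. With the brighter Itgae probe set, the ratio of the chains' signals was thus 6.76-fold lower in Eomes+ cells, with separate groups. The other Itgae probe set differed by only -1.19 log2, and with it the groups of the ratio overlap. The size of the ratio and the separation thus rest on the brighter probe set. An exact permutation test (two-sided) gave p = 0.1, the smallest that 3 against 3 arrays allow, and 0.233 after Benjamini-Hochberg adjustment over the 7 pairs of chains compared.

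Markers of other cells that can carry CD103 were set beside Itgae. Among type 1 conventional dendritic cell genes, Xcr1 lay below the filter level on all 6 arrays, 7 of 9 genes on the array were tested, and their mean was 7.72 to 8.29 on Eomes+ arrays and 7.43 to 8.05 on Eomes- arrays. Clec9a was not analysed here. The 7 CD4 and regulatory T cell markers had means of 8.80, 8.54 and 8.13 on Eomes+ arrays and 9.29, 9.54 and 8.59 on Eomes- arrays. Of these, 1 of 7 was higher in Eomes+ cells (47.4% of all tested genes), and the median difference was -0.77 log2. The higher 1 was Ikzf2, at 0.32 log2 (SE 0.79). The groups were separate for 2 of the 7, both lower in Eomes+ cells (5.14% of all tested probe sets). Cd40lg, the CD40 ligand, read 5.06, 4.74 and 4.78 on Eomes+ arrays, all under the filter level. On Eomes- arrays it read 5.74, 7.56 and 6.38, all above it, though the first array's level was 5.72 (difference -1.70 log2, SE 0.46). It entered the fit through the Eomes- arrays alone, so no p-value is given for it. Capg, an actin-capping protein, read 10.73, 10.49 and 10.92 against 11.50, 11.64 and 11.32 (-0.77 log2, SE 0.17, limma unadjusted p = 0.00331, adjusted p = 1.00). Of the overlapping genes, Cd4 read 6.74 to 7.36 in Eomes+ cells and 7.10 to 7.58 in Eomes- cells, and Foxp3 7.25 to 7.81 and 7.80 to 8.19. Regulatory T cells can also make CD103, and the part of these genes' cells in the Itgae difference was not tested.

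Itga4 pointed the opposite way, with all 5 probe sets higher in Eomes+ cells. Among 493 genes with at least 5 tested probe sets, 16.4% had all of them on 1 side. The brightest, 1436037_at, read 10.86, 11.14 and 10.27 on Eomes+ arrays and 10.09, 10.31 and 9.37 on Eomes- arrays. Only Eomes+ array 3 lay within the Eomes- range, and the means of 10.76 ± 0.44 and 9.92 ± 0.49 (SD, n = 3 each) differed by 0.83 log2 (SE 0.33; 1.78-fold; limma adjusted p = 1.00, unadjusted p = 0.0405). The groups were separate for 2 dimmer probe sets. Probe set 1450155_at read 9.40, 10.05 and 9.47 against 8.98, 8.93 and 8.22 (0.93 log2, SE 0.31), and 1427615_at read 7.75, 7.27 and 7.14 against 6.48, 6.33 and 5.71 (1.21 log2, SE 0.32). Of these, 1427615_at was under the filter level on 1 Eomes- array. The remaining probe sets, 1421194_at and 1456498_at, overlapped between the groups and differed by 0.56 and 0.45 log2 (SE 0.36 and 0.30). In each alternative in which they were tested, the 5 Itga4 differences stayed above 0. Some rested on single arrays: without Eomes- replicate 3, 1421194_at fell to 0.27 log2 and 1436037_at to 0.56, and without Eomes+ replicate 2, 1456498_at fell to 0.18. They lay between 0.47 and 1.11 log2 without both arrays numbered 3, and between 0.48 and 1.30 with the tumour and macrophage covariate. B cells also make alpha4, and of 7 listed B cell markers 6 were on the array and 3 were tested. The 3 tested averaged 6.06 to 6.40 on Eomes+ arrays and 5.88 to 6.15 on Eomes- arrays, near the filter level of 5.70 to 5.72. The others on the array lay below that level on most arrays. The part of B cells in the Itga4 difference was not tested.

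With its 2 possible partners Itga4 was compared within arrays. Itga4 minus Itgb1 was -0.20, -0.04 and -0.93 in Eomes+ cells and -1.11, -1.20 and -1.93 in Eomes- cells, which are separate groups 2.03-fold apart (exact permutation p = 0.1, the smallest possible; 0.233 adjusted over the 7 pairs). For Itga4 minus Itgb7 the values were -1.07, -0.69 and -0.66 against -0.97, -1.18 and -1.79. These groups overlapped, with a difference of 0.50 log2 (exact permutation p = 0.2, adjusted 0.35).

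**Figure D2:**
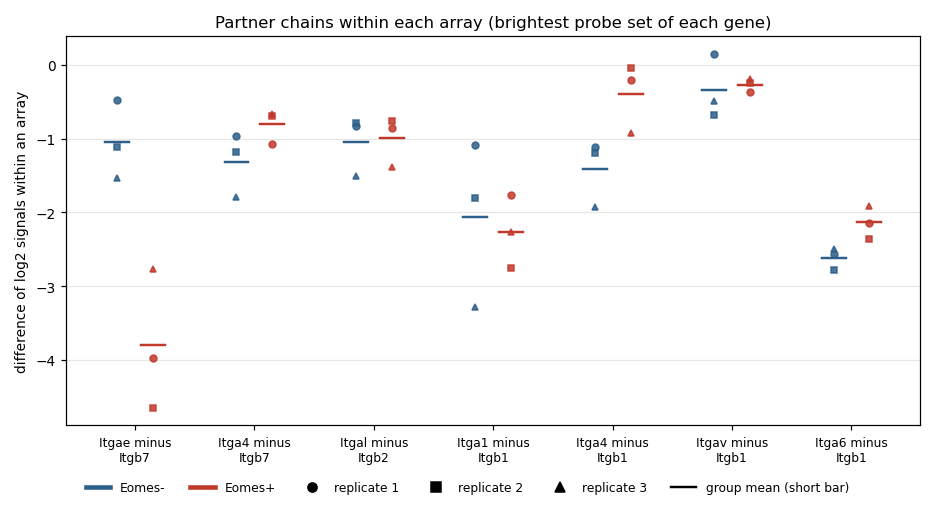
Difference between the log2 signals of 2 partner chains within each array (vertical axis) for 7 pairs (horizontal axis), with Eomes- arrays in blue, Eomes+ arrays in red, shapes for replicate numbers and bars for group means. Itgae minus Itgb7 is lower in all Eomes+ arrays with the probe set drawn (-4.65 to -2.77 against -1.54 to -0.47). With the other Itgae probe set its groups overlap. Itga4 minus Itgb1 is higher in all Eomes+ arrays. Itga6 minus Itgb1 is also higher there with the probe set drawn, but its mean difference is -0.34 log2 with the other Itga6 probe set. The height of a pair has no meaning, only the gap between the colours.

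The stretches before the start sites of Itga4 and of its partner Itgb7 are shown because the 5 Itga4 probe sets pointed one way between cells sorted on a T-box factor's reporter. RefSeq (GRCm38.p6) gave such a stretch for 5 of the 9 genes, named Itga4, Itgb7, Itga1, Itgb1 and Itgav. Each stretch printed holds 250 bases up to the start site, 5′ to 3′ on the gene's strand. That of Itga4 is chr2:79255176-79255425 (plus strand) and that of Itgb7 chr15:102231936-102232185 (minus strand). Capitals mark GTGTGA, the core of T-box motifs, or TGTGGT, the core of RUNX motifs, searched on both strands (reverse complements TCACAC and ACCACA), and no match overlapped another.
Itga4: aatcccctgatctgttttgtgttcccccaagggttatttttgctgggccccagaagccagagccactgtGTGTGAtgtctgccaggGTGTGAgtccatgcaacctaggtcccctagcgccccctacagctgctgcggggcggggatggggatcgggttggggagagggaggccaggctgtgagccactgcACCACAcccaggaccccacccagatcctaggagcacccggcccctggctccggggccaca
Itgb7: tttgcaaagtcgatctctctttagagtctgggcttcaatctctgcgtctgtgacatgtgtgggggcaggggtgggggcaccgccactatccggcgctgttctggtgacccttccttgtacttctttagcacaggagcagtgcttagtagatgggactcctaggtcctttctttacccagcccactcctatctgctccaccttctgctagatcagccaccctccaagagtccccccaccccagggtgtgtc
The Itga4 stretch held 2 copies of GTGTGA, starting 181 and 164 bases before the start site, and 1 of ACCACA, starting 60 bases before it. Of 32851 stretches of the same length, 12.3% held the T-box core at least once and 14.0% the RUNX core. The share with 2 copies was not counted. In the other 4 stretches the T-box core was not found, which says only that these letters are not in those windows. That of Itgav is among them, though its 5 probe sets also pointed one way on the deposited scale. A match is not a measured binding site.

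Itga1, the CD49a chain that often marks resident cells together with CD103, varied too much within a group to be told apart between the groups. Its brighter probe set read 9.30, 8.43 and 8.94 on Eomes+ arrays and 10.10, 9.70 and 8.02 on Eomes- arrays. Eomes- array 3 was the lowest of all and made the groups overlap. The difference was -0.38 log2 (SE 0.56, 95% interval -1.72 to 0.96), -1.04 without both arrays numbered 3, 0.03 without Eomes- replicate 1 and 0.06 without both arrays numbered 2. The other probe set, at 8.22, 7.37 and 6.91 against 9.06, 8.58 and 7.09, differed by -0.74 log2 (SE 0.59), and by -1.32 to -0.33 with arrays left out. It was at -1.02 log2 (SE 0.39) without both arrays numbered 3. With a term for replicate number it was at -0.74 log2 (SE 0.28, limma unadjusted p = 0.0344, adjusted p = 0.461), and the brighter probe set at -0.38 (SE 0.40). Itga1 minus Itgb1 overlapped between the groups (exact permutation p = 0.9).

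Itgav, the chain involved in releasing TGF-beta, had a lower mean in Eomes+ cells by all 5 of its probe sets on the deposited scale, though the brightest turned to 0.10 log2 with arrays centred on T cell markers. Probe set 1421198_at read 9.63, 9.69 and 9.96 on Eomes+ arrays and 10.62, 10.68 and 10.57 on Eomes- arrays. The groups were separate with little spread inside either, at 9.76 ± 0.18 and 10.62 ± 0.05 (SD, n = 3 each). It differed by -0.86 log2 (SE 0.18; 1.82-fold; adjusted p = 1.00, unadjusted p = 0.00202, limma), passed correction with array weights (-0.95 log2, adjusted p = 0.0457) and gave -0.99 to -0.79 log2 with arrays left out. With arrays centred on T cell markers it was -0.65 log2 (SE 0.58), at an unadjusted p of 0.291. The brightest probe set, 1452784_at, read 10.69, 10.95 and 11.02 against 11.35, 10.83 and 10.82. Only Eomes- array 1 was high there, the groups overlapped, and the difference of -0.12 log2 (SE 0.20) turned to 0.06 without that array. The 3 others, 1432296_a_at, 1432678_at and 1432679_at, differed by -0.51, -0.48 and -0.96 log2 (SE 0.26, 0.44 and 0.36), and all 3 overlapped between the groups. With arrays left out they ranged from -0.85 to -0.24, from -0.95 to -0.13 and from -1.23 to -0.63 log2, and the weakest values came without both arrays numbered 1, without Eomes- replicate 1 and without both arrays numbered 2. Tumour and myeloid cells also make this chain. The 21 tumour markers spanned 9.18 to 11.88 on Eomes+ arrays and 9.01 to 12.04 on Eomes- arrays. With the tumour and macrophage marker level as a covariate the difference of 1421198_at was -0.87 log2. The part of these cells in the Itgav differences was not tested further.

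Itgb1, the beta chain shared by alpha1, alpha4, alphav and alpha6, differed little by its bright probe sets. Probe set 1452545_a_at read 11.06, 11.18 and 11.21 on Eomes+ arrays and 11.19, 11.51 and 11.31 on Eomes- arrays, with overlap (-0.19 log2, SE 0.14, 95% interval -0.53 to 0.16). Probe set 1426918_at read 11.19, 10.93 and 11.01 against 11.30, 11.40 and 11.22. Those groups were separate by a narrow margin, with a difference of -0.26 log2 (SE 0.14). The dim probe sets 1426919_at and 1426920_x_at, annotated to the same source sequence as 1426918_at, had a higher mean in Eomes+ cells instead (0.60 and 0.61 log2, SE 0.53 and 0.37). In both, Eomes+ array 1 was the highest, at 7.79 and 7.64, and the other 5 arrays read 5.78 to 6.63 and 6.15 to 6.55. Without that array the differences were 0.04 and 0.23 log2, and the groups of 1426920_x_at were separate only by a narrow margin. Of the last 2, 1427771_x_at differed by -0.06 log2 (SE 0.23) and 1438119_at lay below the filter level on all 6 arrays, at 2.41 to 2.87, and was not tested.

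With all 6 arrays, Itgal and Itgb2, the chains of LFA-1, differed between the fractions by less than their spread, and were lowest on the arrays numbered 3. The brighter Itgal probe set read 11.91, 11.79 and 10.79 on Eomes+ arrays and 12.06, 12.07 and 10.75 on Eomes- arrays. T cell markers were lowest on those arrays too. The difference was -0.13 log2 (SE 0.45, 95% interval -1.20 to 0.94), and that of the other Itgal probe set -0.54 (SE 0.58). Itgb2 read 12.76, 12.54 and 12.18 against 12.90, 12.86 and 12.24, and differed by -0.17 log2 (SE 0.22, 95% interval -0.71 to 0.36). Without both arrays numbered 3, Itgal differed by -0.22 and -0.43 log2 (SE 0.13 and 0.19) and Itgb2 by -0.22 (SE 0.12). With a term for replicate number, the dimmer Itgal probe set 1425367_at was at -0.54 log2 (SE 0.15, limma unadjusted p = 0.00852, adjusted p = 0.331). The brighter was then at -0.13 (SE 0.10) and Itgb2 at -0.17 (SE 0.08). Macrophages and neutrophils also make Itgb2. The 19 macrophage markers averaged 8.94 to 11.06 on Eomes+ and 8.58 to 11.10 on Eomes- arrays, and neutrophil markers (4 tested of 8 listed) averaged 6.74 to 8.96 on Eomes+ and 6.36 to 9.47 on Eomes- arrays. Their part in the Itgb2 signal was not tested. Itgal minus Itgb2 differed by 0.04 log2 between the groups (exact permutation p = 0.7).

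**Figure D3:**
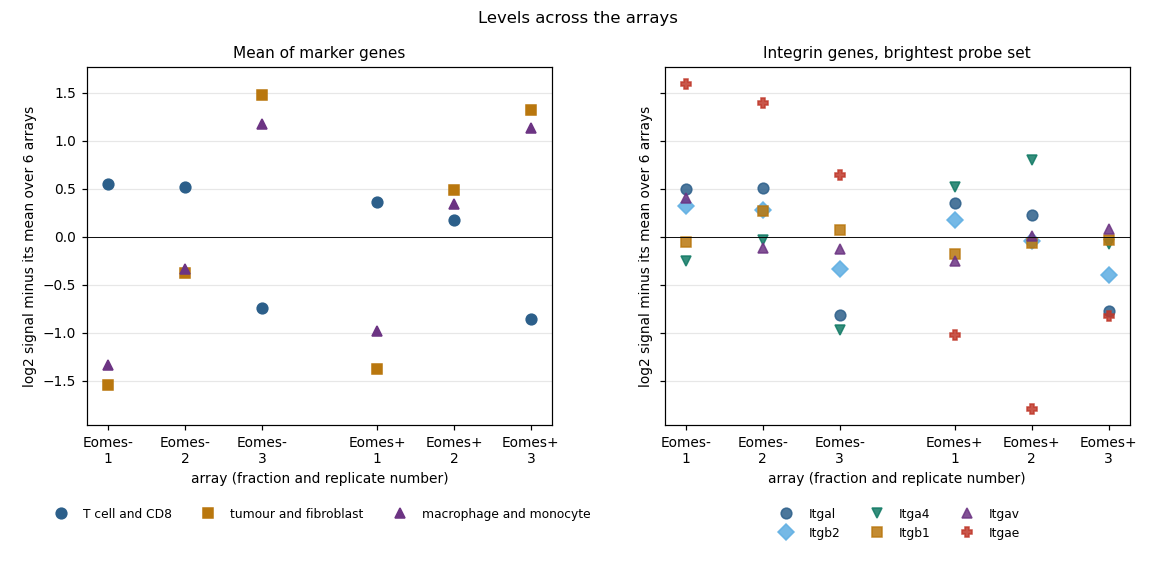
Log2 signal minus its own mean over the 6 arrays (vertical axis) for each array (horizontal axis), with the means of 3 marker lists on the left and the brightest probe set of 6 integrin genes on the right. Itgal and Itgb2 are lowest on the arrays numbered 3, as T cell markers are, and Itgae splits by fraction.

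For Itga6, the laminin receptor chain, the probe sets disagreed. Probe set 1422445_at read 8.92, 8.83 and 9.30 on Eomes+ arrays and 8.63, 8.74 and 8.81 on Eomes- arrays, higher on every Eomes+ array (0.29 log2, SE 0.23). Probe set 1422444_at read 8.39, 8.76 and 8.55 against 8.92, 8.91 and 9.46, lower on every Eomes+ array (-0.53 log2, SE 0.26). With arrays left out they ranged from 0.15 to 0.39 and from -0.72 to -0.35 log2. They are annotated to the same source sequence, so no direction is given for this gene. Platelets carry the alpha6 chain too, and of their genes Pf4 read 8.86 to 10.42 in Eomes+ cells and 6.68 to 10.41 in Eomes- cells, while Ppbp was under the filter level on all arrays. Endothelial cells make the chain as well, and 5 of their 8 listed markers were tested. These averaged 6.32 to 7.81 on Eomes+ arrays and 6.19 to 7.48 on Eomes- arrays, and the rest lay below the filter level on most arrays. Among the tested markers, Pecam1 read 7.89 to 9.52 in Eomes+ cells and 7.44 to 8.11 in Eomes- cells. The part of platelets and endothelial cells was not tested.

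**Figure D4:**
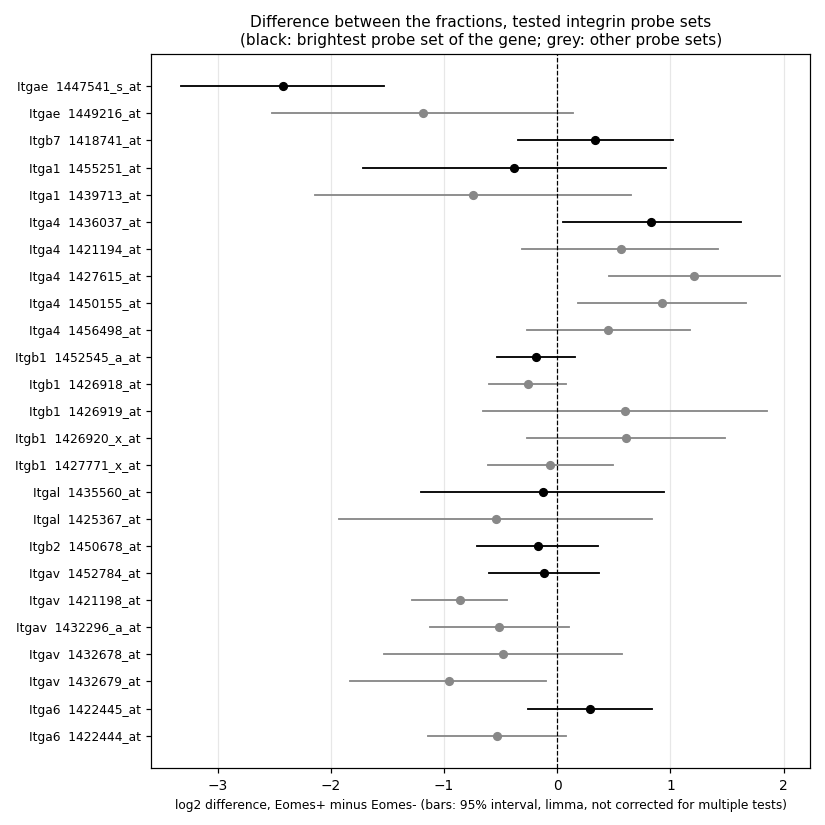
Log2 difference between the fractions, Eomes+ minus Eomes- (horizontal axis), for the 25 tested probe sets (vertical axis), with 95% intervals from limma that are not corrected for multiple tests. The brighter Itgae probe set lies farthest to the left at -2.42, and the other is at -1.19 with an interval that crosses 0 (-2.52 to 0.14). The 5 Itga4 probe sets lie right of 0 between 0.45 and 1.21. The 5 Itgav probe sets lie left of 0 on the deposited scale (the brightest, 1452784_at, was at 0.10 with arrays centred on T cell markers).

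The rest of the integrin system differed less than Itgae. Of 17 other integrin subunit genes 11 were tested, with 7 higher and 4 lower in Eomes+ cells and a median of 0.11 log2, against 47.4% higher and 52.6% lower over 12571 genes. In this list 0 passed over all probe sets and 0 had an unadjusted p under 0.05 (3.13% of all genes). The smallest p was that of Itgax, the CD11c chain of dendritic cells and some activated T cells, at 8.84 ± 0.24 log2 against 8.03 ± 0.72 (SD, n = 3 each; difference 0.81, SE 0.40). Of 18 ligand genes 15 were tested, 11 higher and 4 lower, with a median of 0.19 log2 and 0 called by limma (0 unadjusted). These are largely genes of tumour and matrix. Cdh1, which encodes the CD103 ligand E-cadherin, differed by 0.69 log2 (SE 0.57), and Lama5, a laminin chain, by 0.52 (SE 0.31). Vcam1 differed by 0.05 log2 (SE 1.18), an interval too wide to read, and Madcam1 was not tested.

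Genes that activate integrins from inside the cell were split in direction. Of 28 genes 26 were tested, 15 higher and 11 lower in Eomes+ cells, with a median of 0.03 log2 and 0 called by limma (0 unadjusted). Fermt3, the kindlin of blood cells, differed by 0.44 log2 (SE 0.29), and Tln1, the talin that binds beta chain tails, by -0.23 (SE 0.34). Of 10 genes known to control Itgae through TGF-beta and RUNX all 10 were tested, 6 higher and 4 lower, with a median of 0.03 log2. Limma called 0, and 1 had an unadjusted p under 0.05 (3.13% of all genes). That gene was Smad3, a TGF-beta signal transducer, at 10.05 ± 0.48 log2 in Eomes+ cells against 9.37 ± 0.19 (SD, n = 3 each). The difference was 0.68 log2 (SE 0.29, limma unadjusted p = 0.0496), and the groups overlapped. The part of Smad3 in the Itgae difference was not tested. The TGF-beta receptor gene Tgfbr2 differed by -0.05 log2 (SE 0.25) and Runx3 by 0.05 (SE 0.32).

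Genes with the profile most like the brighter Itgae probe set were sought among 12570 others, by the root mean square difference of log2 values over 6 arrays, each centred on its own mean. They were P4htm, a transmembrane prolyl hydroxylase (0.43 log2), Gzmd, a granzyme (0.46), Kcna4, a potassium channel (0.48), Lat2, a signalling adaptor (0.48), and Gzmf, a granzyme (0.49), where the median gene lay at 1.31. All 5 were lower on every Eomes+ array, which is part of what the measure selects. Lat2 read 8.21, 7.84 and 8.15 on Eomes+ arrays and 9.80, 9.81 and 9.49 on Eomes- arrays. P4htm was under the filter level on each of the 3 Eomes+ arrays and Kcna4 on 2, so their sizes are uncertain. For Itgb7 the nearest were Trim33 (0.09 log2), Sh2b3 (0.10) and Pus1 (0.12), where the median gene lay at 0.49.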

How the data were processed

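The authors deposited log2 signals in 1 table of 45101 probe sets and 6 arrays. Transcriptome Analysis Console and MAS5 are named per the submitters' processing notes, without versions or roles, so how the signals were summarised is not stated. The log2 scale was read from the values. Per the labels' protocols, RNA came from Trizol and carried a biotin label. Nearly equal array medians mean that a shift common to most genes would have been removed.

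Groups were taken from the sample titles. Control probe sets (64) were left out. Symbols came from the platform annotation, updated by gene identifier through RefSeq (GRCm38.p6; 34741 of 34945 found). The 27766 probe sets above the 40th percentile of their array on at least 3 of 6 arrays entered a limma 3.58.1 fit (R 4.3.3; two-sided eBayes, trended by intensity), and p-values were adjusted by Benjamini-Hochberg over all of them, at 0.05. For gene lists the brightest probe set stood for each of 12571 genes. The fit was checked on simulated data. Signals near background compress differences. Precision is limited by the 6 arrays.

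The members and lists were chosen with earlier results of these data known. Named genes were all members, Eomes, of each list the members at an unadjusted p under 0.05 (at most 4) or else that of smallest p, the nearest profiles to Itgae (5) and Itgb7 (3), and fixed markers of other cells; Cdh1, Vcam1, Madcam1, Tln1, Tgfbr2, Runx3 and Ppbp were added for their known roles, and Cd40lg and Capg after their values were seen. Alternatives were a replicate block, other filters, scalings, a pseudocount of 16, 1 probe set per gene, no trend, array weights, a covariate for other cells' RNA and arrays left out.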

Additional observations from a re-analysis of the deposited data

How the results depend on the processing

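Over the alternatives, the 25 tested probe sets gave 458 values of unchanged sign and call, 2 that now passed and 20 of opposite sign. As limma had called 0 of the 25 at first, there was no call that could be lost. Array weights called 74 probe sets against 0, of which 2 were integrins (Itgae at -2.95 and Itgav 1421198_at at -0.95 log2), gave 6270 at an unadjusted p under 0.05 against 936, and 15 integrin probe sets against 6. The unadjusted count over all probe sets was 2748 with a replicate block, 2438 with the other-cell covariate, 1462 without a filter, 562 with the stricter filter, 409 with 1 probe set per gene, 214 with T cell centring and 292 to 1806 with arrays left out. For the integrins it was 3 with T cell centring, 2 of 9 with 1 probe set per gene and 3 to 12 with arrays left out. The cause was not tested, other than fewer probe sets or arrays in some of these.

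Centring on T cell markers shifted the median of all probe sets from -0.02 to 0.19 log2, with 73.6% higher in Eomes+ cells against 46.6%. It turned Itgb1 1452545_a_at (0.03) and 1427771_x_at (0.15), Itgal 1435560_at (0.09), Itgb2 (0.04) and Itgav 1452784_at (0.10). All of these stay below that shifted median, with 16 of 25 integrin probe sets below it as in the deposited scale. Array weights turned Itgb1 1426919_at (-0.15) and Itgav 1452784_at (0.04), and the covariate turned Itgal 1435560_at (0.02). With arrays left out, values that changed sign ranged from -1.04 to 0.06 for Itga1 1455251_at, -0.57 to 0.22 for Itgal 1435560_at, -1.00 to 0.02 for Itgal 1425367_at, -0.27 to 0.16 for Itgav 1452784_at, -0.16 to 0.03 for Itgb1 1427771_x_at and -0.11 to 1.14 for Itgb1 1426919_at. For pairs of chains, ranges were -0.18 to 0.24 for Itgal minus Itgb2, -0.81 to 0.29 for Itga1 minus Itgb1 and -0.10 to 0.32 for Itgav minus Itgb1. With the second brightest probe set, Itgal minus Itgb2 was -0.37, Itgav minus Itgb1 -0.67 and Itga6 minus Itgb1 -0.34. The list of other integrin subunits had a median of 0.48 log2 with the stricter filter, which left 6 of its genes.

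The labels tie no array to an experiment, and shared replicate numbers were not taken as pairs. Over tested probe sets, the correlation of deviations was 0.67, 0.09 and 0.69 for numbers 1, 2 and 3. Between unlike numbers it was -0.69 to 0.37, so for numbers 1 and 3 the arrays of the same number were alike. These values are no ground against pairing. With the replicate block limma called 0 integrin probe sets and 0 in all, with 9 integrins at an unadjusted p under 0.05. Itgae was then at adjusted p = 0.115 and Itga4 1436037_at at 0.15.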
